A study of Mus musculus with 8 samples.

Results

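Semaphorins are secreted, membrane-spanning or lipid-anchored guidance proteins, and plexins and neuropilins are their receptors. The 10 genes described here are 4 semaphorins (Sema7a, Sema3b, Sema3f and Sema4b), 4 plexins (Plxna1, Plxnb2, Plxnc1 and Plxnd1) and both neuropilins (Nrp1 and Nrp2), out of 53379 genes in the count files. They were chosen by gene symbol, and Sema7a was selected on its counts because its level was far higher in the line pB3 than in the line pB2. Its values in that comparison are therefore a description without a test.

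The samples are monolayer cultures of 4 tumour-derived mammary carcinoma lines from C57BL/6 mice, with 2 libraries per line. The parent mice of pB2 and pB3 were MMTV-PyMT mice, in which a mammary tumour virus promoter drives the polyoma middle T oncogene. The lines Epcam hi and 687g came from MMTV-PyMT-Snail-IRES-YFP reporter mice, which carry the same transgene. All 4 lines thus share the oncogene and have no untreated or normal counterpart. The comparison within each mouse model asks how lines of an epithelial-mesenchymal transition (EMT) series differ. The labels do not say whether the 2 libraries of a line are separate cultures, so the p-values reflect no more than how far these libraries spread, which may be technical. Each line stands for itself, and its mouse model cannot be told apart from the line.

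Semaphorins signal by drawing plexins together at the cell surface, which switches small GTPases and loosens or remodels the actin cytoskeleton and integrin adhesion. Secreted class 3 semaphorins mostly need a neuropilin beside a plexin, whereas most membrane-bound semaphorins bind plexins directly. Neuropilins also bind vascular endothelial growth factors (VEGFs), which made the family known in tumour vessels as well as in axon guidance. Sema7a is held in the membrane by a lipid anchor, binds plexin C1 and the integrin beta 1 chain, and has been described in mammary epithelial cells that undergo EMT.

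Sequences upstream of the start site were read from RefSeq on GRCm38.p6 for 7 of the 10 genes. Sema3b, Sema3f and Plxna1 had no entry in the table used. The windows printed are those of Sema7a, of Sema4b and Nrp2 (both also lowest in pB2), of Nrp1 (which followed another order of lines) and of Plxnc1 (close to 0 throughout). Each runs 5′ to 3′ on the gene's strand, up to 250 bases before the RefSeq start, without bases annotated as exon. Capitals mark GC-boxes, GGGCGG on either strand, where neighbouring matches can overlap by a base.
Sema7a, chr9:57939862-57940111, plus strand: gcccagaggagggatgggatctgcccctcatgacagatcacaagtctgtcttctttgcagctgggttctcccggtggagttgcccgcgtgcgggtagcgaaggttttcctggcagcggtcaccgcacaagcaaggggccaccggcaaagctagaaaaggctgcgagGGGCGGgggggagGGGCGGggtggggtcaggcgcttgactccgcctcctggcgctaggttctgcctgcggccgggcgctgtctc
Sema4b, chr7:80186620-80186840, plus strand: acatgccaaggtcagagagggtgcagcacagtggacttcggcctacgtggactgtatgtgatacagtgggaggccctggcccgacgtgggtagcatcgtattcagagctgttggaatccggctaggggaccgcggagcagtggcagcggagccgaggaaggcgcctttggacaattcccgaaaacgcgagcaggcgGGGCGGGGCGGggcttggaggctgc
Nrp2, chr1:62703067-62703284, plus strand: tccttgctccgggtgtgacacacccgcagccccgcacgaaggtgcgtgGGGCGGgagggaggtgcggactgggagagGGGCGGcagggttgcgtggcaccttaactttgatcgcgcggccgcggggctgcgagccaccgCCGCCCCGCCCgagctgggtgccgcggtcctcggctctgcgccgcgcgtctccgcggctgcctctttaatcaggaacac
Nrp1, chr8:128358823-128359072, plus strand: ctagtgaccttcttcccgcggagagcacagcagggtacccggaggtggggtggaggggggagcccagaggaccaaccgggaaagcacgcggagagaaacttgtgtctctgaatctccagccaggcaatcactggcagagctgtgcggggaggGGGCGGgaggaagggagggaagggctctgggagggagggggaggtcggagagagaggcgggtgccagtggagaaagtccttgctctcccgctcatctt
Plxnc1, chr10:94944846-94945095, minus strand: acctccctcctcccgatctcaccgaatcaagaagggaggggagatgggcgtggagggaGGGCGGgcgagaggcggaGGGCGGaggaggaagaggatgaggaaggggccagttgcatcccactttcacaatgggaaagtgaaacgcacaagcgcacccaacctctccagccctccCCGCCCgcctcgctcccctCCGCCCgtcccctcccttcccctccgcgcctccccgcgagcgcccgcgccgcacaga

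Of the 5 runs, that of Nrp1 lies in an intron of a GENCODE transcript that starts further upstream, and the others lie outside the annotated gene. The printed runs held 2 GC-boxes for Sema7a, 2 for Sema4b, 4 for Nrp2, 1 for Nrp1 and 4 for Plxnc1. Of 32851 RefSeq windows of 250 bases, 32.7% held at least 1 GC-box. The full window of Nrp2 contained 32 CpG dinucleotides and that of Plxnc1 22, against a median of 6 over all windows. Other motifs searched on both strands were the E2-box CACCTG, which Zeb and Snail factors bind (17.2% of windows), the AP-1 motif TGANTCA (6.75%) and the TEAD motif GGAATG (12.6%). None of the 5 runs above held one of these. The E2-box was present in the second of the 2 windows of Plxnb2 and the TEAD motif in the window of Plxnd1. A match is only a description of these letters. The run of Plxnc1 held as many GC-boxes as that of Nrp2, although Plxnc1 had next to no reads in these lines.

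Levels are given as CPM, the counts of a gene per 1000000 counts of the library, scaled by TMM factors. Total counts were 12442730 to 19149916 per library, so 3 counts in a library are 0.159 to 0.222 CPM. The mammary epithelial markers Epcam, Cdh1, Krt8, Krt18, Krt14 and Krt5 summed to between 1190 and 5280 CPM, and Epcam alone averaged 3.77 CPM in 687g against 1472 in Epcam hi. Summed Vim and Zeb1, markers of the mesenchymal state, were 14.0 and 14.1 CPM in pB2, 21.6 and 33.5 in Epcam hi, 2330 and 2460 in pB3, and 3430 and 2370 in 687g. The 8 endothelial markers, of the cell type best known for neuropilins and Plxnd1, summed to 0.604 to 0.913 CPM, and none passed 1 CPM in any line. Leukocyte markers summed to 0.813 to 3.74 CPM except in Epcam hi (36.4 and 14.5). Of these 8 markers, 1 averaged over 1 CPM in Epcam hi, 1 in pB3, 2 in 687g and none in pB2. In Epcam hi that was Cd68, at 35.5 and 13.4 CPM.

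Fibroblast markers summed to 63.5 and 84.9 CPM in pB2 against 42.4 and 44.4 in pB3, and 2.95 and 2.46 in Epcam hi against 21.4 and 16.0 in 687g. They were mainly Pdgfra in pB2 and Pdpn in pB3, and their part in the results below was not tested. Neuronal and glial markers summed to 22.9 to 32.2 CPM in pB3 and Epcam hi and to 3.62 to 6.52 in the other lines. In these bulk cultures, fewer cells of a kind and less RNA per cell cannot be told apart.

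**Figure D1:**
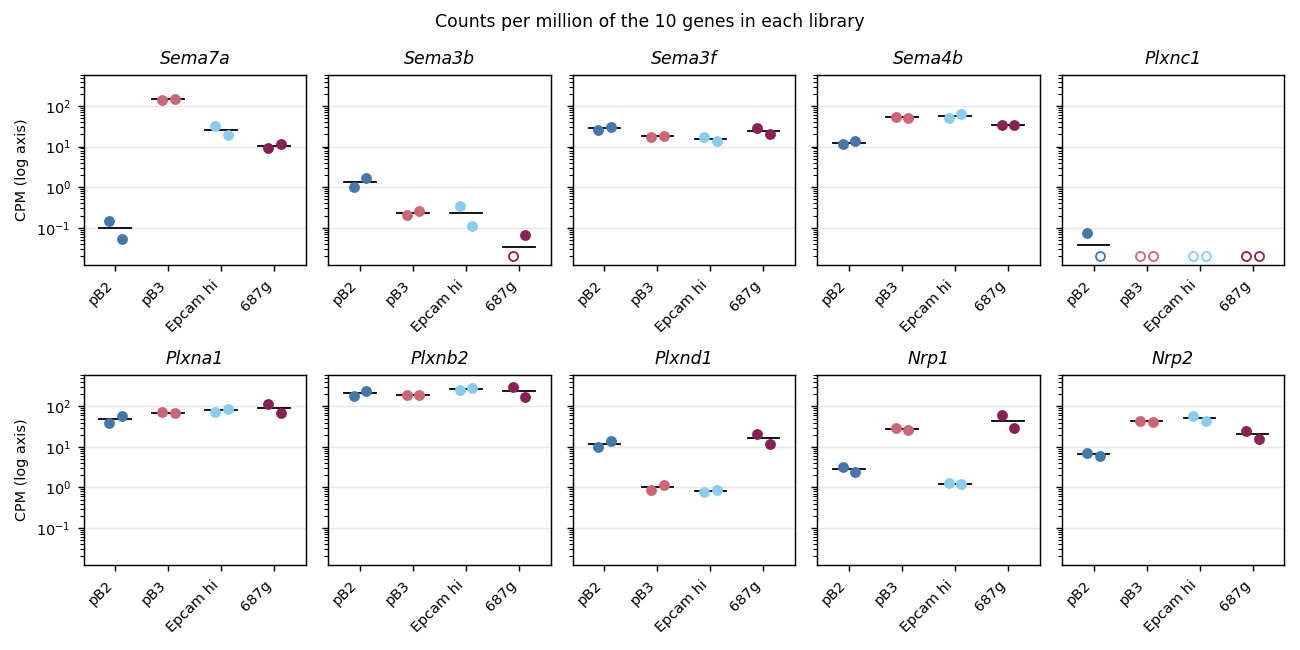
CPM on a log axis for the 10 genes, with 1 point per library, a bar at the mean of each line, and open points at the foot for libraries with 0 counts. Sema7a runs from 3 counts in both pB2 libraries together to a mean of 147.7 CPM in pB3, Nrp1 is high in pB3 and 687g, Nrp2 and Sema4b are lowest in pB2, and Plxnd1 is high in pB2 and 687g.

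Sema7a (chromosome 9, 57940112 to 57962865, plus strand, GRCm38) had 2 and 1 counts in the pB2 libraries, or 0.148 and 0.0530 CPM. In pB3 it had 2111 and 2374 counts, or 141.7 and 153.6 CPM (mean 147.7 ± 8.38, SD, n = 2). Epcam hi gave 32.1 and 19.0 CPM, and 687g gave 9.09 and 11.9 CPM. The order of the lines was pB3, Epcam hi, 687g and pB2, and no library of one line overlapped with another line. By count sums per TMM-scaled library total, pB3 was 1596-fold above pB2, with a 95% counting interval of 546 to 7742 that covers counting error only. The same ratio to the 3 counts of pB2 was 267 for Epcam hi (91.02 to 1297) and 112 for 687g (37.9 to 545). The values that chose Sema7a thus describe a gene near 0 in pB2 and measured in the other 3 lines, with the highest level in pB3.

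The comparison of 687g with Epcam hi shares no library with the choice of Sema7a and could be tested. There Sema7a was lower in 687g by 2.44-fold in mean CPM, a log2 difference of -1.28 ± 0.25 (SE), with an adjusted p of 0.00116 in edgeR's quasi-likelihood test. The spread in that test was estimated over all 8 libraries, so the pB2 and pB3 libraries that chose Sema7a entered that estimate. The 2 Epcam hi libraries differed from each other more than the 2 of pB3, at 32.1 and 19.0 CPM, but both lay above both 687g libraries.

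The receptors of Sema7a were measured at opposite ends of the range. Plxnc1, which encodes plexin C1 (chromosome 10, 94790866 to 94944835, minus strand), had 1 count in the first pB2 library and 0 counts in the other 7 libraries, too few to test. In those 7 libraries, a count of 0 allows up to 0.159 to 0.211 CPM per library. Itgb1, the integrin beta 1 chain, averaged 377 ± 8.23 CPM in pB2 against 1520 ± 1.13 in pB3, and 2962 ± 189 in Epcam hi against 1827 ± 94.7 in 687g (SD, n = 2 each). It was 4.03-fold higher in pB3 than in pB2 (log2 2.01 ± 0.18, adjusted p = 5.21e-07 in edgeR) and lower in 687g than in Epcam hi (log2 -0.70 ± 0.17, adjusted p = 0.00528). A fit of the 4 libraries of the latter pair alone ended that call (adjusted p = 0.0671). Itgb1 thus shared with Sema7a its lowest level in pB2, but its highest level was in Epcam hi, not in pB3.

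The alpha 1 chain Itga1, which pairs with beta 1 in a Sema7a-binding integrin, is named here for that role, after its values were seen. It gave 3.62 and 5.67 CPM in pB2 against 0.470 and 0.324 in pB3, and 1.90 and 0.219 in Epcam hi against 6.19 and 2.28 in 687g. Itga1 was lower in pB3 than in pB2 (log2 -3.53 ± 0.79, adjusted p = 0.00219 in edgeR), opposite to Itgb1. It was higher in 687g than in Epcam hi (log2 2.06 ± 0.70, adjusted p = 0.0329), a call that ended without the first 687g library (1.19, adjusted p = 0.323), without the second Epcam hi library (1.25, adjusted p = 0.0622) and with total-count scaling (1.93, adjusted p = 0.0505). Without the first Epcam hi library the difference was 4.25.

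Sema3b (chromosome 9, 107597674 to 107609229, minus strand), a secreted class 3 semaphorin described as a growth-suppressing gene in carcinomas, was scarce in every library. It had 14 and 31 counts in pB2 against 3 and 4 in pB3, and 5 and 2 in Epcam hi against 0 and 1 in 687g. In CPM this was 1.04 and 1.64 in pB2 and at most 0.351 in any other library, so pB2 did not overlap with the rest. Sema3b passed the filter on low counts through pB2 alone, where it is highest, so its differences from pB2 are given as a description, without a test or a call. The fitted log2 difference from pB2 was -2.51 in pB3 and -2.58 in Epcam hi. By count sums, pB2 was 45.6-fold above 687g with a counting interval of 7.78 to 1841, which rests on 1 count in 687g.

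Sema3f (chromosome 9, 107681500 to 107710475, minus strand), the class 3 semaphorin that binds neuropilin 2 most strongly, lies 72.3 kb from Sema3b and was expressed at moderate levels in all 4 lines. It gave 25.4 and 31.3 CPM in pB2 against 17.4 and 18.4 in pB3, and 17.7 and 13.6 in Epcam hi against 29.6 and 20.1 in 687g. The order was pB2, 687g, pB3 and Epcam hi. Neither pB2 and 687g (adjusted p = 0.514), 687g and pB3 (0.161) nor pB3 and Epcam hi (0.575) differed by the test. Sema3f was lower in pB3 than in pB2 (log2 -0.67 ± 0.23, adjusted p = 0.0306) and in Epcam hi than in pB2 (log2 -0.86 ± 0.23, adjusted p = 0.00682), and higher in 687g than in Epcam hi (log2 0.67 ± 0.23, adjusted p = 0.0363).

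These small Sema3f differences depended on single libraries. The pB3 against pB2 call ended without the second pB2 library (adjusted p = 0.198) and without either pB3 library (0.172 and 0.117), and the Epcam hi against pB2 call without the second pB2 library (0.0525). The 687g against Epcam hi call ended without the first 687g library (0.239), the second Epcam hi library (0.0960) or the first pB3 library (0.0503), with total-count scaling (0.0947) and in a fit of its 4 libraries alone (0.0951). Without the second 687g library, 687g was called above pB3 (log2 0.73, adjusted p = 0.0415).

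Sema4b (chromosome 7, 80186841 to 80226527, plus strand), a membrane-spanning class 4 semaphorin, was lowest in pB2. Its libraries gave 11.4 and 13.6 CPM in pB2 against 55.1 and 51.8 in pB3, and 49.9 and 64.2 in Epcam hi against 34.0 and 33.2 in 687g. Epcam hi and pB3 overlapped (adjusted p = 0.754), 687g lay below both and pB2 below all. Sema4b was 4.29-fold higher in pB3 than in pB2 (log2 2.10 ± 0.20, adjusted p = 1.2e-06) and lower in 687g than in Epcam hi (log2 -0.76 ± 0.19, adjusted p = 0.00572). It was also lower in 687g than in pB3 (log2 -0.67 ± 0.19, adjusted p = 0.0174). Without the second Epcam hi library the fall in 687g missed the threshold (log2 -0.49, adjusted p = 0.0793). The 687g against pB3 call ended without any 1 of the 4 libraries of those lines (adjusted p from 0.0524 to 0.173).

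Among the receptors, Plxnb2 (chromosome 15, 89155549 to 89180788, minus strand), the plexin for several class 4 semaphorins, was the most abundant in every line. It gave 185.5 and 233.2 CPM in pB2 against 192.8 and 190.5 in pB3, and 253.6 and 286.6 in Epcam hi against 301.1 and 170.8 in 687g. No comparison between lines passed the test, with log2 differences from -0.50 (pB3 against Epcam hi) to 0.37 (Epcam hi against pB2). The 687g libraries, at 301.1 and 170.8 CPM, lay above and below every library of the other lines. Leaving out the first 687g library gave a call for 687g below Epcam hi (log2 -0.64, adjusted p = 0.0330), and leaving out the second gave one for 687g above pB3 (0.65, adjusted p = 0.0382). A fit of the 4 libraries of pB3 and Epcam hi alone called pB3 lower (log2 -0.48, adjusted p = 0.0311), as did leaving out the first 687g library (log2 -0.48, adjusted p = 0.0425).

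Plxna1 (chromosome 6, 89316314 to 89362620, minus strand), a signalling partner of neuropilins for class 3 semaphorins, gave 38.2 and 57.4 CPM in pB2 against 71.2 and 68.6 in pB3, and 71.2 and 87.6 in Epcam hi against 112.1 and 68.9 in 687g. Every library of the other 3 lines lay above both pB2 libraries. Plxna1 was higher than in pB2 in Epcam hi (log2 0.73 ± 0.25, adjusted p = 0.0251) and in 687g (log2 0.92 ± 0.25, adjusted p = 0.00680), and in pB3 the difference was log2 0.55 ± 0.25 with an adjusted p of 0.0926. Without the first pB2 library both calls ended (adjusted p = 0.271 and 0.115). The Epcam hi call also ended without the second Epcam hi library (0.145) and with total-count scaling (0.0620), and the 687g call without the first 687g library (0.103). The pB3 difference was called without a filter on low counts (0.0424), without the second pB2 library (0.0491) and in a fit of 4 libraries (0.00298). Between pB3, Epcam hi and 687g no difference passed the test.

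Plxnd1 (chromosome 6, 115954811 to 115995005, minus strand), the receptor that binds Sema3e without a neuropilin, divided the lines otherwise. It gave 9.91 and 14.3 CPM in pB2 against 0.873 and 1.17 in pB3, and 0.773 and 0.875 in Epcam hi against 21.3 and 12.01 in 687g. The high lines 687g and pB2 overlapped (adjusted p = 0.216), and so did the low lines pB3 and Epcam hi (adjusted p = 0.684). Plxnd1 was 11.9-fold lower in pB3 than in pB2 (log2 -3.56 ± 0.37, adjusted p = 3.19e-06) and 20.2-fold higher in 687g than in Epcam hi (log2 4.32 ± 0.38, adjusted p = 7.98e-07). The high lines of this gene were thus 1 from each mouse model, and 1 with low and 1 with high Vim and Zeb1. Without the second 687g library, 687g was called above pB2 (log2 0.80, adjusted p = 0.0437).

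Nrp1 (chromosome 8, 128358604 to 128503363, plus strand), the preferred co-receptor of Sema3a and of VEGF-A, was high in pB3 and 687g. It gave 3.18 and 2.44 CPM in pB2 against 28.9 and 26.0 in pB3, and 1.27 and 1.20 in Epcam hi against 60.6 and 28.9 in 687g. The lower 687g library, at 28.92 CPM, lay just above the higher pB3 library, at 28.87, and 687g against pB3 did not pass the test (log2 0.71 ± 0.28, adjusted p = 0.0858). Nrp1 was 9.77-fold higher in pB3 than in pB2 (log2 3.30 ± 0.33, adjusted p = 2.24e-06) and 36.3-fold higher in 687g than in Epcam hi (log2 5.18 ± 0.37, adjusted p = 1.01e-07). These are the lines of each pair with the higher Vim and Zeb1. Without the first 687g library, at 60.6 CPM, the latter difference was log2 4.57.

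Leaving out the second 687g library gave a call for Nrp1 in 687g above pB3 (log2 1.14, adjusted p = 0.00253), as did leaving out the second Epcam hi library (0.72, adjusted p = 0.0472) and testing without a filter on low counts (0.71, adjusted p = 0.0217). Nrp1 was lower in Epcam hi than in pB2 (log2 -1.17 ± 0.41, adjusted p = 0.0289). That call ended without the first pB2 library (adjusted p = 0.135), without either Epcam hi library (0.0623 and 0.0587) and in a fit of 4 libraries (0.0613).

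Nrp2 (chromosome 1, 62703285 to 62818695, plus strand), the neuropilin preferred by Sema3f and by VEGF-C, followed another order. It gave 6.95 and 6.09 CPM in pB2 against 43.6 and 41.2 in pB3, and 57.9 and 43.5 in Epcam hi against 25.3 and 15.7 in 687g. Epcam hi and pB3 overlapped (adjusted p = 0.442), 687g lay below both and pB2 below all, the same order as for Sema4b. Nrp2 was 6.5-fold higher in pB3 than in pB2 (log2 2.70 ± 0.26, adjusted p = 1.16e-06) and 2.48-fold lower in 687g than in Epcam hi (log2 -1.30 ± 0.24, adjusted p = 6.12e-04). None of the alternative settings ended a call for Nrp2 between 2 lines.

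Scaled to exon length, the Nrp1 level relative to that of Nrp2 was 0.554 and 0.484 in pB2 against 0.801 and 0.765 in pB3, and 0.0264 and 0.0334 in Epcam hi against 2.90 and 2.23 in 687g. Nrp1 thus exceeded Nrp2 in 687g and fell far below it in Epcam hi, by 37.8 and 29.9-fold. With the longest transcript as the length, the pB3 ratios were 1.22 and 1.17, so the order in pB3 depends on the length used, whereas in the other 3 lines it did not (0.844 and 0.738 in pB2, 0.0403 and 0.0510 in Epcam hi, 4.42 and 3.40 in 687g).

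The difference between the pairs was tested directly as 687g over Epcam hi minus pB3 over pB2, on the log2 scale. By that test, 5 of the 7 tested members other than Sema7a and Sema3b differed between the pairs, where 37.7% of all 15890 tested genes did. Plxnd1 differed by 7.88 ± 0.54 (adjusted p = 5.72e-08), since it fell in pB3 and rose in 687g. Nrp2 differed by -4.01 ± 0.35 (adjusted p = 6.46e-07) and Sema4b by -2.86 ± 0.27 (adjusted p = 1.73e-06), both higher in pB3 and lower in 687g than their partner lines. Sema3f differed by 1.34 ± 0.33 (adjusted p = 0.00514). For Nrp1, higher in both pairs, the value was 1.88 ± 0.50 (adjusted p = 0.00861), and 1.27 (adjusted p = 0.0162) without the first 687g library. Plxna1 (-0.36, adjusted p = 0.462) and Plxnb2 (-0.07, adjusted p = 0.914) did not pass.

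**Figure D2:**
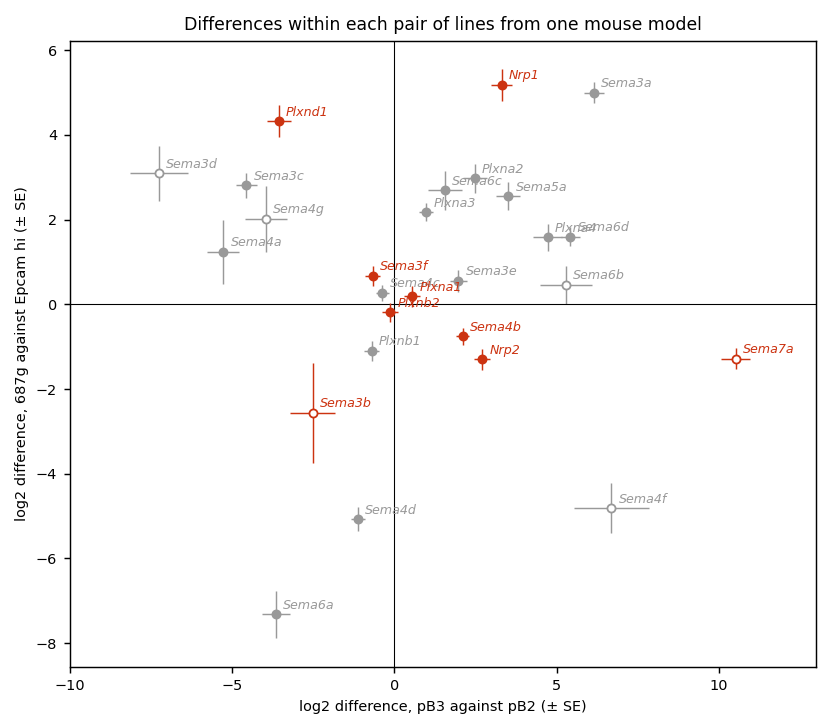
Log2 differences of the 27 tested semaphorin, plexin and neuropilin genes, pB3 against pB2 on the horizontal axis and 687g against Epcam hi on the vertical axis, with bars of 1 SE and the genes described first in red. Open points have 3 or fewer counts in a line, so their place depends on the prior count of the fit. Nrp1 lies high on both axes, Plxnd1 at upper left, and Nrp2, Sema4b and Sema7a at lower right.

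Counts of calls have to be read beside those of all genes, since many genes differed between these lines. The members counted are the 7 tested ones other than Sema7a, which was selected on its counts, and Sema3b, which passed the filter through pB2 alone. In pB3 against pB2, 5 of the 7 were called (3 higher, 2 lower) beside 44.8% of all tested genes (21.6% higher, 23.2% lower), and as this contrast chose Sema7a nothing is read from it. In 687g against Epcam hi, 5 of the 7 were called (3 higher, 2 lower), where 36.4% of all genes were (18.4% higher, 18.0% lower). In Epcam hi against pB2, 6 of the 7 were called (3 higher, 3 lower, where 51.4% of all genes were called, 25.8% higher and 25.6% lower), in 687g against pB3 3 of the 7 (1 higher, 2 lower, beside 25.8%, 12.8% higher and 12.9% lower), in 687g against pB2 4 of the 7 (52.3%), and in pB3 against Epcam hi 1 of the 7 (29.4%). These comparisons share libraries with each other and are not independent. The last of these calls was Nrp1, at log2 4.47 ± 0.37 (adjusted p = 6.94e-07). Plxnc1 is the 1 member of the 10 that did not pass the filter on low counts.

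In the whole family of 20 semaphorins, 9 plexins and 2 neuropilins, 27 of 31 genes passed the filter on low counts. Sema3g, Sema5b, Plxnb3 and Plxnc1 did not. Of the 26 other than Sema7a, 13 were higher and 10 lower in pB3 than in pB2, where 44.8% of all genes were called, with a median log2 difference of 0.76 against 0.02 over all genes. In 687g against Epcam hi, 12 of the 26 were higher and 6 lower, beside 36.4% of all genes, with a median of 0.95 against -0.03. A gene measured well in only 1 line passes the filter through that line, so these shares describe the tested genes and not the family. The 10 lower include Sema3b, Sema4a and Sema4g, which passed the filter through pB2 alone. Likewise, the 6 lower include Sema4f, which passed it through Epcam hi. The filter favoured those calls, so nothing is read from them.

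Among the other class 3 semaphorins, Sema3a, the neuropilin 1 ligand that collapses growth cones, gave 0.370 and 1.01 CPM in pB2 against 52.6 and 52.1 in pB3, and 7.66 and 6.07 in Epcam hi against 222.1 and 213.8 in 687g. It was thus high in the lines high in Nrp1, by log2 6.15 ± 0.31 in pB3 against pB2 (adjusted p = 2.36e-09; 7.11 without the second pB2 library) and 4.99 ± 0.25 in 687g against Epcam hi (adjusted p = 3.3e-09). Sema3c, which signals through neuropilins and plexins A and D1, gave 610.3 and 520.7 CPM in pB2 against 24.2 and 23.7 in pB3, and 16.7 and 35.6 in Epcam hi against 209.4 and 157.4 in 687g. Like Plxnd1, Sema3c was lower in pB3 than in pB2 (log2 -4.56 ± 0.32, adjusted p = 5.1e-08) and higher in 687g than in Epcam hi (2.81 ± 0.29, adjusted p = 4.28e-06; 3.54 without the second Epcam hi library).

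Sema3e, the ligand that binds Plxnd1 itself, followed another order, with means of 29.4 CPM in pB2 against 115.1 in pB3, and 16.3 in Epcam hi against 23.8 in 687g. It was higher in pB3 than in pB2 (log2 1.97 ± 0.26, adjusted p = 2.76e-05), where Plxnd1 was lower. In 687g against Epcam hi Sema3e did not pass the test (0.56 ± 0.26, adjusted p = 0.116), though it did without the first Epcam hi library (1.12, adjusted p = 0.00181) and without a filter on low counts (0.60, adjusted p = 0.0411). Sema3d had 203 counts in pB2 and 1 in pB3, a ratio of 190.2 with a counting interval of 33.8 to 7547. It was higher in 687g, at 2.71 CPM, than in Epcam hi, at 0.328 (log2 3.09 ± 0.65, adjusted p = 0.00199; from 2.16 to 4.01 without 1 library).

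Sema3a, Sema3c, Sema3d and Sema3e share a stretch of 5.35 Mb on chromosome 5 (12383385 to 17730268). They did not move together in pB3 against pB2, where Sema3a and Sema3e were higher and Sema3c and Sema3d lower. The 7 other tested genes in that stretch had a median log2 difference of 2.62 there, between -2.91 and 9.97, and of -1.18 in 687g against Epcam hi.

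Of the membrane-bound semaphorins, 3 were higher in both pairs. Sema6d averaged 0.540 CPM in pB2 against 23.9 in pB3, and 8.53 in Epcam hi against 26.0 in 687g (log2 5.42 ± 0.30 and 1.60 ± 0.22, adjusted p = 5.48e-09 and 5.21e-05). Sema5a averaged 0.916, 10.8, 2.03 and 11.9 CPM in the same order of lines (3.51 ± 0.37 and 2.55 ± 0.33, adjusted p = 3.06e-06 and 3.77e-05). Sema6c was at most 5.01 CPM, in 687g. Its difference there was 2.69 ± 0.46 (adjusted p = 3.86e-04), while that of pB3 against pB2 (1.56 ± 0.53, adjusted p = 0.0280) ended in DESeq2 (0.0681), with total-count scaling (0.0521) and without any 1 library of these lines (0.0652 to 0.186).

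Sema4d and Sema6a were lower in both pairs. Sema4d, the plexin B1 ligand, averaged 22.1 CPM in pB2 against 10.2 in pB3, and 31.8 in Epcam hi against 0.927 in 687g (log2 -1.12 ± 0.22 and -5.07 ± 0.28, adjusted p = 8.92e-04 and 8.66e-09). Sema6a, a plexin A2 and A4 ligand, averaged 15.5, 1.21, 30.2 and 0.167 CPM (log2 -3.66 ± 0.43 and -7.32 ± 0.56, adjusted p = 9.25e-06 and 1.72e-07). Without the first 687g library the latter was -11.89, and without the second -6.44.

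Sema4a averaged 11.7 CPM in pB2 and 0.296 in pB3, a fitted log2 difference of -5.27. In 687g and Epcam hi it was at 0.290 and 0.125 CPM, and the test was not passed (adjusted p = 0.228). Sema4a, too, passed the filter through pB2 alone, so its difference from pB2 is a description, without a test or a call. Sema4f had 0 counts in pB2 and was at least 8.54-fold higher in pB3, against a floor of 3 counts over both pB2 libraries. It averaged 5.31 CPM in Epcam hi and 0.179 in 687g, a fitted log2 difference of -4.81. Sema4f passed the filter through Epcam hi, where it is highest, so this difference is also a description without a test or a call. Sema4c stayed between 20.3 and 30.7 CPM on average and passed the test in neither pair (adjusted p = 0.131 and 0.294), except that pB3 was called below pB2 with total-count scaling (log2 -0.57, adjusted p = 0.0255) and in a fit of 4 libraries (-0.36, adjusted p = 0.0385).

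Plexins of the A group other than Plxna1 were higher in pB3 than in pB2 and in 687g than in Epcam hi. Plxna2 averaged 2.10 CPM in pB2 against 11.7 in pB3, and 3.21 in Epcam hi against 25.2 in 687g (log2 2.48 ± 0.37 and 2.97 ± 0.35, adjusted p = 7.69e-05 and 1.33e-05). Plxna3 averaged 9.18, 18.2, 6.45 and 29.3 CPM (0.98 ± 0.21 and 2.18 ± 0.21, adjusted p = 0.00151 and 2.27e-06). Plxna4 averaged 0.593, 16.3, 7.71 and 23.3 CPM (4.72 ± 0.44 and 1.58 ± 0.32, adjusted p = 9.25e-07 and 0.00158). Leaving out the first 687g library brought Plxna2 to 2.26 in its pair, and leaving out the second Epcam hi library brought Plxna4 to 2.39.

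Plxnb1, the Sema4d receptor, moved the other way. It averaged 53.1 CPM in pB2 against 32.6 in pB3, and 38.5 in Epcam hi against 18.0 in 687g (log2 -0.70 ± 0.24 and -1.10 ± 0.24, adjusted p = 0.0266 and 0.00266). The first of these calls ended without the second pB2 library (adjusted p = 0.280) and without either pB3 library (0.103 and 0.142). The receptor and its ligand Sema4d were thus both lower in 687g than in Epcam hi.

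**Figure D3:**
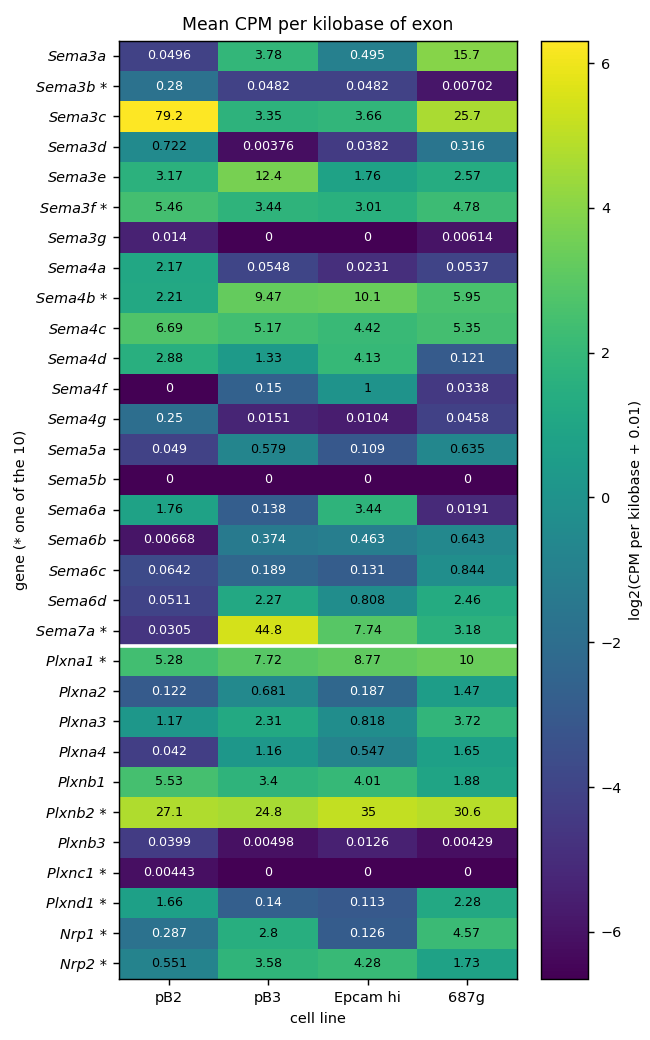
Mean CPM per kilobase of exon of 20 semaphorins (above the white line) and 11 receptors (below it) in the 4 lines, coloured by log2(CPM per kilobase + 0.01), with the value in each cell and a star at the 10 genes described first. Sema3c in pB2 and Sema7a in pB3 are the highest semaphorin cells, and Plxnb2 is the highest receptor in every line.

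Compared per kilobase of exon, a different semaphorin had the highest mean share in each of pB2, pB3 and Epcam hi. Sema3c made up 78.6% and 72.0% of the summed semaphorin level in the pB2 libraries. Sema7a made up 49.9% and 52.4% in pB3. In Epcam hi the leading shares were those of Sema4b, at 22.0% and 26.7%, and of Sema7a, at 24.3% and 13.5%, and their order differed between the libraries. In 687g, Sema3c held 39.9% and 34.8% and Sema3a 21.8% and 24.3%. With longest transcripts as lengths the latter order turned, to a mean of 31.2% for Sema3c and 34.6% for Sema3a. Among receptors, Plxnb2 made up a mean of 65.0% in pB2 and in Epcam hi, 53.2% in pB3 and 52.4% in 687g, and it also led with the other length.

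The other proteins of the pathway were taken from fixed lists of receptor partners, VEGF ligands, effectors and processing proteases. Of 7 tested partners of the receptors, 4 were higher and 2 lower in pB3 than in pB2, beside 44.8% of all genes called. Their median log2 was 1.54 against 0.02 over all genes. In 687g against Epcam hi 2 were higher and 4 lower, beside 36.4% of all genes, with a median of -0.70 against -0.03. The 4 higher in pB3 include Flt4, which had 0 counts in pB2 and 118 in pB3. Flt4 passed the filter on low counts through pB3, where it is highest, so nothing is read from that call. Flt1, a VEGF receptor, gave 64.9 and 85.4 CPM in pB2 against 8.46 and 8.15 in pB3, and 1.83 and 1.15 in Epcam hi against 36.3 and 17.8 in 687g. It was lower in pB3 than in pB2 (log2 -3.18 ± 0.31, adjusted p = 1.68e-06) and higher in 687g than in Epcam hi (4.21 ± 0.37, adjusted p = 7.02e-07; 3.62 without the first 687g library), in the order of lines of Plxnd1 and Sema3c within each pair. L1cam, an adhesion protein that acts with neuropilin 1, averaged 16.8 CPM in Epcam hi and 0.117 in 687g (-7.03 ± 0.50, adjusted p = 1e-07; -7.79 without the first 687g library).

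Of the 5 VEGF ligands, 3 were higher and none lower in pB3 than in pB2, with a median log2 of 0.68. Of all tested genes, 44.8% were called there (21.6% higher). In 687g against Epcam hi 4 were higher and 1 lower, with a median of 0.77, beside 36.4% of all genes called (18.4% higher). The genes called higher in each pair include Vegfd, which had 37 counts in 687g and 2 in Epcam hi. Vegfd passed the filter on low counts only with the 687g libraries, where it is highest, so nothing is read from its calls. Vegfa was higher in both pairs, at 85.7 against 42.9 CPM in pB3 and pB2 (log2 1.00 ± 0.18, adjusted p = 4.67e-04) and 283 against 166.3 CPM in 687g and Epcam hi (0.77 ± 0.18, adjusted p = 0.00381). Pgf, placental growth factor, reached 250.3 CPM in 687g against 69.0 in Epcam hi (1.86 ± 0.24, adjusted p = 3.03e-05). Vegfc, the lymphatic growth factor, was the 1 that fell in 687g, from 5.11 to 0.145 CPM (-5.01 ± 0.52, adjusted p = 4.19e-06; -6.07 without the first 687g library), as did its co-receptor Nrp2.

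Of 29 tested effectors, 13 were higher, 7 lower and 9 not called in pB3 against pB2 (median log2 0.41), beside 44.8% of all genes called. In 687g against Epcam hi 5 were higher, 4 lower and 20 not called (median 0.05), which is 9 of 29 beside the 36.4% of all genes given above. Dpysl3, of the collapsin response mediators that bind tubulin, averaged 12.4 CPM in pB2 and 157 in pB3 (3.67 ± 0.30, adjusted p = 2.56e-07). Dpysl5, which passed the filter through pB2 alone, had 202 counts in pB2 and 1 in pB3, a ratio of 189.2 (33.6 to 7510). Mical2, an oxidase that takes actin filaments apart, averaged 76.6 CPM in 687g and 11.7 in Epcam hi (2.73 ± 0.32, adjusted p = 1.19e-05). Fyn, a kinase downstream of Sema3a, fell from 57.4 CPM in Epcam hi to 2.26 in 687g (-4.64 ± 0.30, adjusted p = 3.97e-08).

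Of the 7 proteases that cleave semaphorins or their receptors, 2 were higher and 3 lower in pB3 than in pB2 (median log2 -0.08). In 687g against Epcam hi 2 were higher and 1 lower (median 0.21). Of all tested genes, 44.8% and 36.4% were called in these comparisons. Furin, the convertase that activates class 3 semaphorins, averaged 56.1 CPM in pB2 and 113.1 in pB3 (1.01 ± 0.23, adjusted p = 0.00240), a call that ended without the first pB2 library (0.81, adjusted p = 0.0558). Pcsk5 had 322 counts in pB2 and 0 in the other 3 lines, at least 101-fold higher in pB2 than in pB3. It is among the 3 called lower by edgeR, whereas DESeq2 did not call it (adjusted p = 0.0921). Pcsk5 passed the filter through pB2 alone, so its difference from pB2 is a description. Adam10 averaged 577 CPM in 687g and 127.4 in Epcam hi (2.18 ± 0.24, adjusted p = 6.21e-06). Pcsk6 had 244 counts in Epcam hi and 1 in 687g, a ratio of 246.3 (43.8 to 9769).

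**Figure D4:**
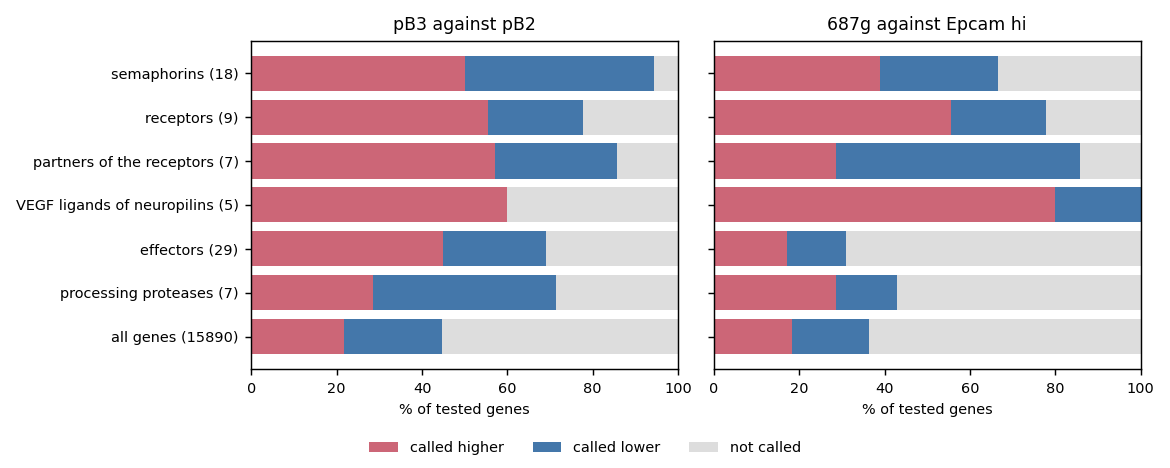
Share of tested genes called higher, called lower and not called for each list, with its number of tested genes in brackets, in pB3 against pB2 (left) and 687g against Epcam hi (right). Sema7a, selected on its counts, is counted among the semaphorins. The bars also count Sema3b, Sema4a, Sema4g, Sema4f, Flt4, Vegfd, Dpysl5 and Pcsk5. These passed the filter on low counts through the line where they are highest, so nothing is read from their calls. All 15890 tested genes stand at the foot, with 44.8% and 36.4% called.

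The genes most like Sema7a over the 8 libraries, by Pearson's r of log2 CPM, were Sh3gl3 (0.997), Syngr1 (0.990), Plp2 (0.989), Cotl1 (0.988) and AA467197 (0.988). Each was highest in pB3 and lowest in pB2, which picking them by their r with Sema7a favours. AA467197 averaged 0.264 CPM in pB2 and 184 in pB3, and Sh3gl3 0.661 and 19.8. Within the 10, Sema7a had r = 0.93 with Sema4b and 0.92 with Nrp2, and Sema4b and Nrp2 had 0.96 with each other. Sema3f and Plxnd1 had 0.87, and Nrp1 and Nrp2 had 0.10. The points are 8 libraries of 4 lines, so these values describe the order of 4 lines. The pB2 and pB3 values that chose Sema7a also enter every r with it.

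The 23 tested genes within 500 kb of Sema7a had a median log2 difference of 0.54 in pB3 against pB2, between -3.34 and 11.17, so at least 1 neighbour had a fitted difference as large as that of Sema7a. Around Plxnd1 17 genes had a median of 0.10 there, and around Nrp2 7 genes had -0.39.

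The 687g libraries differed from each other for the long receptor genes. The log2 ratio of the first to the second 687g library was 1.06 for Nrp1, 0.82 for Plxnb2 and Plxnd1, 0.70 for Plxna1 and 0.68 for Nrp2, and -0.38 for Sema7a. Over all tested genes its median went from -0.25 in the shortest of 5 equal bins of exon length to 0.28 in the longest. In pB3 the medians stayed between -0.03 and 0.04, in pB2 the longest bin was at -0.21, and in Epcam hi the shortest bin was at 0.54. The part of gene length in the member values was not tested beyond leaving out each library.

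**Figure D5:**
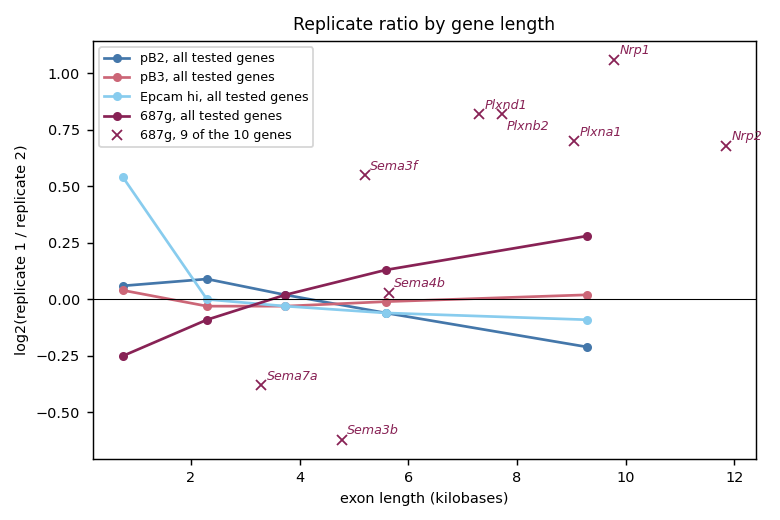
Log2 ratio of the first to the second library of each line against exon length in kilobases, as medians over 5 bins of the tested genes (lines) and for the 9 tested members in 687g (crosses). The 687g line climbs from -0.25 to 0.28, and the 5 tested receptors lie above it, between 0.68 and 1.06.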

How the data were processed

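Per the labels' protocols, total RNA of monolayer cultures was purified (RNeasy) and made into KAPA mRNA libraries. STAR 2.6.1a on GRCm38 (mm10) and featureCounts, set to the reverse strand, gave the authors' values, per the submitters' processing notes. The deposited values are raw counts, whole numbers for 53379 Ensembl genes in each of 8 libraries. GENCODE M21, which gave a symbol to 53274 of them, supplied positions and exon lengths. Reads that fit several genes are treated in a way not given in the sources used here.

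Genes were kept by filterByExpr by line (15890 genes) and tested with edgeR 4.0.16 in R 4.3.3, by TMM scaling and quasi-likelihood F tests over all 8 libraries with 1 coefficient per line (biological coefficient of variation 0.178). P-values were adjusted by Benjamini and Hochberg over all tested genes, with a two-sided call under 0.05. The SE is the log2 difference divided by the root of F. Levels per kilobase divide CPM by the length of all annotated exons. Ratios against 1 to 3 counts carry exact 95% Poisson intervals, and ratios against 0 counts use a floor of 3 counts over both libraries of a line. The scripts were tested on simulated counts.

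The members and lists were chosen with earlier results of these data known. Named are all members, other family genes averaging 5 CPM or more in 1 line, the called gene with the largest difference each way per list and pair (at least 5 CPM), and the 5 genes most like Sema7a (at least 10 CPM in 1 line). The alternatives were DESeq2 1.42.0, its size factors, total-count scaling, no filter and a filter of 1 CPM in 2 libraries, 4-library fits, a replicate block, leaving out each library, and longest transcripts as lengths. Proteins were not analysed here. The deposited counts give the depth of each library, and intervals cover counting error only.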

Additional observations from a re-analysis of the deposited data

Results flagged for a closer look

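For 5 of the 7 tested genes other than Sema7a and Sema3b, the difference between 687g and Epcam hi was itself different from that between pB3 and pB2, by a test of the interaction in the edgeR fit. The same test called 37.7% of all 15890 tested genes. The values on the log2 scale, 687g over Epcam hi minus pB3 over pB2, were 7.88 for Plxnd1, -4.01 for Nrp2, -2.86 for Sema4b, 1.88 for Nrp1 and 1.34 for Sema3f. Plxnd1, Sema3f, Nrp2 and Sema4b had opposite signs in the pairs, whereas Nrp1 was higher in pB3 and in 687g. The pairs differ in mouse model and in line, which cannot be told apart.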

How the results depend on the processing

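No direction of a called member turned under any alternative run. Sema7a, selected on its counts, and Sema3b, which passed the filter through pB2 alone, are left out of the counts here. Of the 7 other tested members, the number called ranged over all alternatives from 4 to 6 in pB3 against pB2, from 3 to 5 in 687g against Epcam hi, from 4 to 6 in Epcam hi against pB2, from 2 to 5 in 687g against pB3, from 3 to 5 in 687g against pB2 and from 1 to 2 in pB3 against Epcam hi, and was 5 throughout for the difference between the pairs. It was 3 in 687g against Epcam hi without the second Epcam hi library, 5 in 687g against pB3 without the second 687g library, and 2 in pB3 against Epcam hi without the first 687g library or in a 4-library fit. Of the values of these 7 genes, 19 lost and 8 gained a call when 1 library was left out, and total-count scaling and 4-library fits ended 2 each. Testing without a filter and the 4-library fits added 2 each, and DESeq2 changed none. Total-count scaling moved the median of all genes by -0.19 in pB3 against pB2, -0.12 in 687g against Epcam hi, -0.11 in Epcam hi against pB2 and -0.23 in 687g against pB2.

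With a replicate block, 5 of the 7 were called in pB3 against pB2 and 5 in 687g against Epcam hi, and no call of these 7 genes changed. Correlations of the replicate differences between lines ran from -0.10 to 0.17, so the replicate numbers do not pair the libraries. Where 1 library of a line was left out, the remaining one is assumed to vary like the other lines. Depth limits Sema3b and Plxnc1, with at most 31 counts in a library.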
